A study of Mus musculus with 16 samples.

Results

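To ask whether loss of CDK8 weakens the transcriptional response to a CDK8/CDK19 inhibitor, the change caused by Senexin B within each cell line was compared between 4 Cdk8-ko and 4 wild-type BCR-ABL1p185+ lines. All 16 of the 16 RNA-seq libraries of the series entered the comparison. Each of the 8 lines contributed a DMSO and a Senexin B library, and the quantity compared is a difference of differences, the Cdk8-ko change minus the wild-type change. The lines derive from bone marrow of C57BL/6N mice and were transformed individually with a retrovirus that carries BCR-ABL1p185 and GFP. The wild-type lines carry a floxed Cdk8 allele, and in the Cdk8-ko lines it was deleted by Vav-Cre, which acts in hematopoietic cells. Both genotypes received 1 µM Senexin B or 0.01% DMSO for 48 h, and all lines share the oncogene.

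CDK8 and its paralog CDK19 are alternative kinases of the Mediator kinase module, in which Cyclin C, MED12 and MED13 complete the complex. The module docks on Mediator, the bridge between transcription factors and RNA polymerase II, and the kinase phosphorylates transcription factors. Senexin B inhibits both kinases, so that CDK19 remains as a target in Cdk8-ko cells. BCR-ABL1p185 drives B-cell acute lymphoblastic leukemia at the pro-B and pre-B stage.

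The libraries held 13145876 to 18349425 counted reads. All 10 B-lineage markers were detected in every group, with a summed level of 5854 to 9153 CPM (reads scaled to library size), whereas the summed mast cell and basophil markers never exceeded 2.65 CPM and the summed myeloid markers reached at most 25.1 CPM, in a Cdk8-ko DMSO library, carried by Lyz2 (0.164 to 24.6 CPM), while Elane, S100a8 and S100a9 had no read. Summed T and NK markers were at 18.3 to 196 CPM and stromal and endothelial markers at 48.9 to 497 CPM, carried by Lck (17.5 to 133 CPM), Klrb1c (0.216 to 81.4 CPM) and Pecam1 (48.5 to 497 CPM). Cd3g, Trbc2, Ncr1, Col3a1, Kdr and Lum had no read. The markers' part in the results was not tested. The Cdk8 gene itself was counted at 61.8 to 68.7 CPM in the wild-type and 35.3 to 52.1 CPM in the Cdk8-ko DMSO libraries. With Senexin B it was at 55.2 to 89.4 CPM in wild-type and 41.2 to 61.7 CPM in Cdk8-ko libraries. Counts over the whole gene include exons that a deletion may leave in the transcript, so this level is no check of the genotype labels.

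The lines did not all respond alike. Across 14164 tested genes, the change in wild-type line 1 correlated with that in Cdk8-ko line 1 (r = 0.62) but not with wild-type lines 2 to 4 (r = -0.07, -0.14 and -0.16). Wild-type lines 2 to 4 correlated with each other at r = 0.40 to 0.64. The labels give no shared day or batch for line 1, and whether one exists cannot be told from them. Cdk8-ko line 2 also correlated more with wild-type line 1 (r = 0.35) and Cdk8-ko line 1 (r = 0.31) than with Cdk8-ko lines 3 and 4 (r = 0.15 and 0.13), which correlated with each other at r = 0.45. The main gene groups are therefore also given without line 1.

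No gene passed the limits for a difference between the genotypes' responses, 0% of the 14164 genes tested (edgeR quasi-likelihood test, Benjamini-Hochberg adjusted p under 0.05 and an absolute log2 value over 1; smallest adjusted p = 0.991). At an unadjusted p under 0.05 there were 459 genes, or 3.24%, of which 230 had the higher and 229 the lower change in Cdk8-ko lines. A share of 0.05 would fall under this limit without any difference, so the genes found are no more than chance would give. DESeq2 with the same terms also called 0 genes, with 394 at an unadjusted p under 0.05. With no filter on low counts 2 genes passed. For single genes the difference is given below with its unadjusted 95% interval, and a p under 0.05 is the unadjusted one unless called adjusted. No single-gene difference holds after adjustment.

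Taken genotype by genotype, the test called 85 genes in wild-type lines (0.6%; 41 rose, 0.289%, and 44 fell, 0.311%) and 8 in Cdk8-ko lines (0.0565%; 4 rose and 4 fell, 0.0282% each), and 7 genes were called in both. These counts depended on single lines, from 17 (without wild-type line 2) to 454 (without wild-type line 1) in wild-type and from 0 (without Cdk8-ko line 4) to 27 (without wild-type line 1) in Cdk8-ko lines. Unequal counts alone do not show unequal responses, so the sizes of the changes were compared. For this purpose the 133 genes (0.939%) called on the average of both genotypes were used, in which the 2 fitted changes weigh the same. The within-line changes varied more in wild-type lines (median SD over genes 0.332) than in Cdk8-ko lines (0.251), so a choice on the average favours large wild-type values, and no value of the ratio expected without a difference was computed. Over these genes the median change in the direction of the average was 1.79 in wild-type and 1.25 in Cdk8-ko lines on the log2 scale, a ratio of 0.699. The Cdk8-ko change was the smaller one for 110 of the 133 genes (82.7%), and the fitted Cdk8-ko change had the sign of the average for each of them, which the limit on the average makes likely. In the single Cdk8-ko lines 1 to 4, 14, 10, 4 and 5 of the 133 genes went the opposite way. Without a limit on size 337 genes (2.38%) passed on the average. The 80 genes that rose (0.565%) had median changes of 2.05 and 1.46 in wild-type and Cdk8-ko lines, and the 53 that fell (0.374%) had 1.57 and 1.15.

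**Figure D1:**
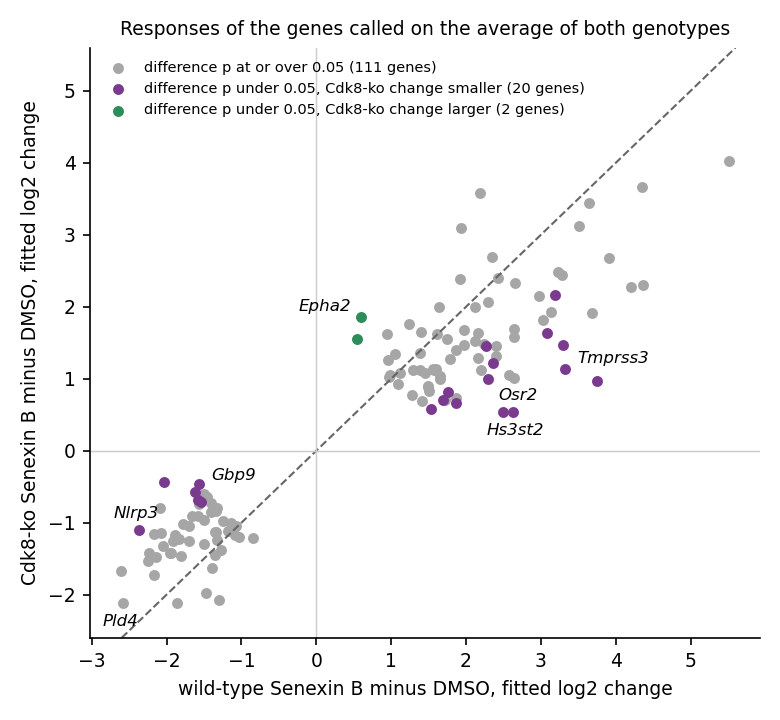
Fitted log2 change with Senexin B in wild-type lines (x axis) against Cdk8-ko lines (y axis) for the 133 genes called on the average of both genotypes, where the dashed line marks equal changes. 110 genes lie nearer to 0 on the Cdk8-ko axis than on the wild-type axis, and 20 of the 22 genes with an unadjusted p of the difference under 0.05 are among them.

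The difference in size was visible line by line but the genotypes overlapped. On the log2(CPM + 1) scale, which shrinks the changes of weakly expressed genes, the median change over the 133 genes was 0.864, 1.07, 1.22 and 1.31 in wild-type lines 1 to 4. In Cdk8-ko lines 1 to 4 it was 0.52, 0.809, 0.977 and 0.92. Line 1 had the smallest value of its genotype in both, and Cdk8-ko lines 3 and 4 lay above wild-type line 1. With line 1 of both genotypes left out, an alternative added after seeing the data, 424 genes were called on the average and the ratio was 0.562. Leaving out a single line gave ratios of 0.525 (without wild-type line 1) to 0.8 (without Cdk8-ko line 1), all of them below 1. The genes were chosen anew on the average each time, so the limit given above for this choice holds for each ratio.

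**Figure D2:**
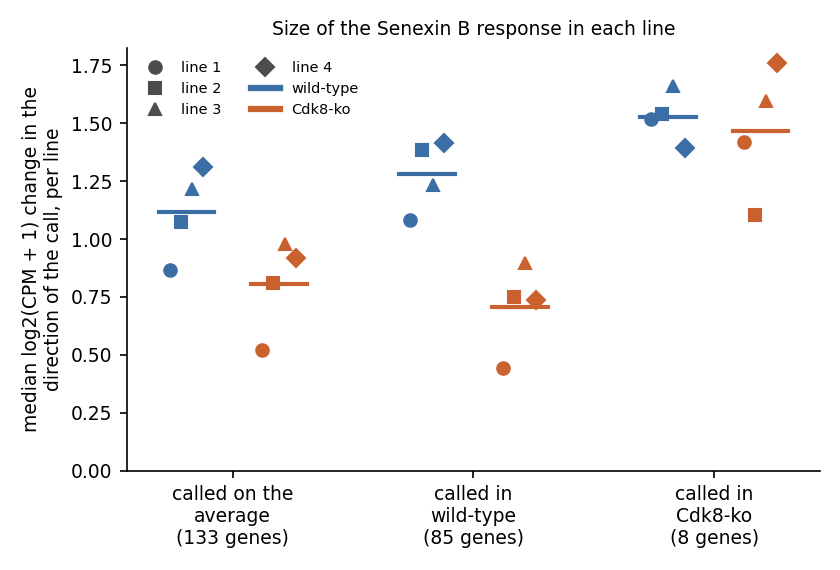
Median log2(CPM + 1) change per line (y axis), taken in the direction of the call, for the genes called on the average, in wild-type lines and in Cdk8-ko lines (x axis). Symbols are lines and horizontal bars are means of 4 lines. For the 85 genes called in wild-type lines, chosen on the wild-type values, the Cdk8-ko lines lie at 0.442 to 0.896 and the wild-type lines at 1.08 to 1.41.

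Of the 133 genes, 22 (16.5%) had an unadjusted p of the difference under 0.05, against 3.24% of all genes, and 20 of the 22 changed less in Cdk8-ko lines. Over all genes tested, 342 (2.41%) fulfilled both conditions. In 7 of the 133 genes (5.26%) the 4 Cdk8-ko changes lay apart from the 4 wild-type changes, and in all 7 they were the smaller ones, whereas the lines lay apart in 294 of all genes (2.08%; Cdk8-ko change higher in 0.974% and lower in 1.1%), 201 of them (1.42%) with the smaller change in Cdk8-ko lines. If the 8 lines were exchangeable, a share of 0.02857 of the genes would have lines apart, and the 2.08% found lies below it. The 7 are Osr2, Gbp9, Nlrp3, Ltbp2, Hs3st2, Tmprss3 and the transcription factor gene Bhlhe41. The 133 genes were chosen on the same libraries, which favours large wild-type values. All genes are therefore no equal baseline for these shares, which describe the chosen genes only.

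The 85 genes called in wild-type lines were sorted by what remained in Cdk8-ko lines. The response went the opposite way for 2 genes, kept its direction at under 50% of the wild-type size for 30, lay between 50% and the full size for 52 and was at least as large for 1. The 95% interval of the Cdk8-ko change included 0 for 14 of the 85, and for 13 of these 14 the interval of the difference excluded 0. All 4 Cdk8-ko lines changed in the wild-type direction for 62 of the 85. These genes were chosen for large wild-type changes, which makes the wild-type side larger by choice.

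The levels of the 4 groups were then set beside the responses. Among the 20 genes with the smaller Cdk8-ko change, the Cdk8-ko level in DMSO already lay on the Senexin B side of the wild-type level for 19, by a median of 0.87 on the log2(CPM + 1) scale. After Senexin B the genotypes differed by a median of -0.17 in the direction of the response. Over the 133 genes the DMSO shift had a median of 0.24 and lay on the Senexin B side for 85 genes. For the 80 genes that rose the median was 0.52, with 57 on that side. For the 53 genes that fell it was 0.018, with 28 on that side. Over all genes tested the Cdk8-ko minus wild-type level had a median of 0.004. That value was not taken in the direction of a response, so it is no baseline for the shift. The DMSO libraries enter both this shift and the response, and the 20 genes were chosen on the difference, so these values describe the same data in another way.

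Osr2, which encodes a zinc finger transcription factor, had the smallest p of the difference among the 133 genes (chromosome 15, 35296098 to 35303304, GRCm38). In wild-type lines 1 to 4 it was at 1.503, 1.95, 1.82 and 7.56 CPM in DMSO and at 5.47, 13.7, 9.16 and 34.5 CPM with Senexin B. In Cdk8-ko lines 1 to 4 it was at 22.96, 0.752, 62.1 and 20.9 CPM in DMSO and at 33.1, 1.99, 126 and 50.7 CPM with Senexin B. Every line had more Osr2 RNA with the inhibitor, and 3 of the 4 Cdk8-ko lines exceeded all wild-type lines before treatment. In such bulk libraries fewer cells that express a gene and less RNA per cell cannot be told apart. The fitted change was 2.30 ± 0.19 (SE) in wild-type and 1.00 ± 0.17 in Cdk8-ko lines, a difference of -1.30 (95% interval -1.86 to -0.74).

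Further genes rose in wild-type lines and changed less without CDK8. Prdm8, a member of the PRDM family of transcriptional regulators, changed by 1.02 ± 0.15 in wild-type and 0.11 ± 0.15 in Cdk8-ko lines (difference -0.91, interval -1.37 to -0.45). Its Cdk8-ko lines changed by 0.18, 0.39, -0.17 and 0.03 on the log2(CPM + 1) scale and the wild-type lines by 0.55, 1.12, 1.05 and 1.02, without overlap. Fcrla, an Fc receptor-like protein of B cells, changed by 1.86 ± 0.29 and 0.66 ± 0.29 (difference -1.20, interval -2.10 to -0.31), and its lines overlapped. Ltbp2, an extracellular matrix protein that belongs to the latent TGF-beta binding proteins, changed by 1.70 ± 0.20 and 0.70 ± 0.19. Hs3st2, a heparan sulfate sulfotransferase, changed by 2.497 ± 0.39 and 0.54 ± 0.38, and the membrane protease gene Tmprss3 by 3.32 ± 0.43 and 1.14 ± 0.58. The chemokine receptor gene Ccr7 rose by 2.27 ± 0.27 in wild-type lines and changed by 1.46 ± 0.26 in Cdk8-ko lines (difference -0.82, interval -1.63 to -0.00), all 8 lines in the same direction.

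Nlrp3, the sensor of the inflammasome, fell in wild-type lines (chromosome 11, 59541568 to 59566956). It went from 17.9, 59.1, 47.8 and 28.4 CPM in DMSO to 4.25, 14.3, 9.91 and 3.0 CPM with Senexin B in wild-type lines 1 to 4. In Cdk8-ko lines it went from 33.4, 20.1, 8.51 and 5.01 CPM to 19.8, 8.73, 2.31 and 3.14 CPM. Nlrp3 was lower with the inhibitor in all 8 lines, to a smaller extent in every Cdk8-ko line than in any wild-type line, and the mean level with Senexin B was 7.87 CPM in wild-type and 8.49 CPM in Cdk8-ko lines. The fitted changes were -2.37 ± 0.23 and -1.11 ± 0.23 (difference 1.27, interval 0.55 to 1.99).

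Hsd11b1, the enzyme that regenerates active glucocorticoid, changed by -1.54 ± 0.20 in wild-type and -0.45 ± 0.21 in Cdk8-ko lines (difference 1.08, interval 0.45 to 1.72). Its wild-type DMSO libraries held 17.2 to 34.2 CPM, and Senexin B brought them to 7.39 to 9.58 CPM. The Cdk8-ko lines 2 to 4 were at 4.45 to 7.27 CPM in DMSO already, whereas Cdk8-ko line 1 stayed at 19.0 CPM in DMSO and 19.3 CPM with Senexin B. Clec2i, a C-type lectin gene, changed by -1.03 ± 0.14 and -0.19 ± 0.14 (difference 0.85, interval 0.41 to 1.28), and the calcium channel gene Cacna1h by -2.04 ± 0.35 and -0.44 ± 0.31. Plxnd1, a semaphorin receptor, Card6 and Wsb2 were also called in wild-type lines, and their lines lay apart. Ctdsp2, a phosphatase of the small C-terminal domain phosphatase family, was one of 118 genes (0.833%) that passed the wild-type test at any size. It changed by -0.68 ± 0.10 in wild-type lines, below the size limit, and by -0.07 ± 0.10 in Cdk8-ko lines (difference 0.61, interval 0.32 to 0.91).

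**Figure D3:**
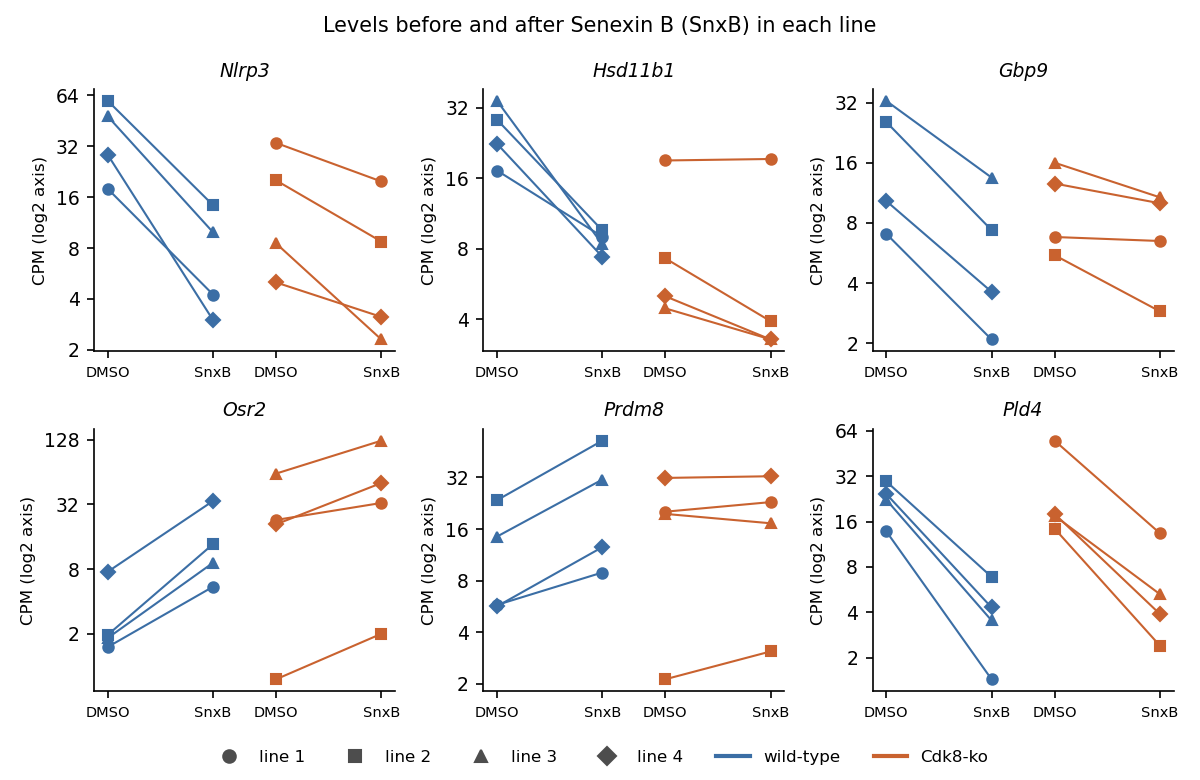
Level of 6 genes in CPM (y axis, log2-spaced) in DMSO and with Senexin B, where each line of the plot joins the 2 libraries of a cell line. Nlrp3, Hsd11b1 and Gbp9 descend more steeply in wild-type (blue) than in Cdk8-ko lines (orange), Osr2 and Prdm8 climb more steeply in wild-type lines, and Pld4 descends in all 8 lines.

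Dnajc6, which encodes the clathrin-uncoating cofactor auxilin, had the smallest p of the difference of all genes (difference 4.37, interval 2.63 to 6.11), with a fitted change of -2.24 ± 0.37 in wild-type and 2.13 ± 0.71 in Cdk8-ko lines. The opposite sign rests on very few reads. Cdk8-ko DMSO libraries held 0 to 2 Dnajc6 reads and the Senexin B libraries 1 to 8, while wild-type lines 2 to 4 had at least 39 reads in DMSO and 7 to 71 with Senexin B. These 3 wild-type lines changed by -1.135, -2.23 and -1.52 on the log2(CPM + 1) scale. Wild-type line 1 changed by only -0.30, so the large fall was not shared by every wild-type line. The gene was therefore near the detection limit in Cdk8-ko lines before treatment, and its Cdk8-ko fold depends on the prior count of the fit. Among the 85 genes the other one with an opposite fitted sign is ENSMUSG00000091562.3, an identifier without a symbol, with -1.55 in wild-type and 0.05 in Cdk8-ko lines, where the interval of the latter included 0.

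The interferon-induced GTPases were compared as a group. These guanylate-binding proteins and immunity-related GTPases attack the vacuoles of intracellular pathogens and are induced by interferon. Of 18 members 15 were tested, and their median change was -1.04 in wild-type and -0.46 in Cdk8-ko lines, against -0.00086 and -0.0067 over all genes. The medians per line overlapped, at -0.98, -0.63, -0.40 and -1.07 in wild-type lines 1 to 4 and -0.65, -0.80, -0.28 and -0.24 in Cdk8-ko lines 1 to 4 on the log2(CPM + 1) scale. Cdk8-ko lines 1 and 2 lay below wild-type lines 2 and 3. In wild-type lines 5 of the 15 fell (Gbp2, Gbp4, Gbp9, Irgm2 and Tgtp2), against 0.311% of all genes, and in Cdk8-ko lines 0 passed the test, against 0.0565%. The Cdk8-ko change was the higher one for 11 of the 15, against 7010 of 14164 genes. A p of the difference under 0.05 with the higher change in Cdk8-ko lines was found for 4 of the 15, against 1.62% of all genes. These were Gbp9, Gbp4, Irgm2 and Tgtp1, the last with overlapping lines. Tgtp1 was at the limit (interval 3.8e-05 to 3.06), with group means of only 0.423 to 1.62 CPM. It was 3 of the 15 with DESeq2 and 0 of the 15 in the fit without the line block. None of these differences holds after adjustment.

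Promoter sequences (RefSeq, GRCm38.p6; 250 bases before to 50 after the start) were given for 11 of the 18 members. They are shown for Irgm2, whose decrease was smaller in Cdk8-ko lines, for its neighbour Igtp, which was called in neither genotype, and for Gbp2, which was called in wild-type lines. The gene model over which Irgm2 was counted starts at 58199618, close to that of Igtp at 58199556. The Irgm2 promoter shown lies at 58214727 to 58215026 and is thus not at the start of that model. Capitals mark the interferon-stimulated response element, searched as GAAA, any 2 bases and GAAA on both strands. Each is read 5′ to 3′ on the strand of the gene.
Irgm2, chr11:58214727-58215026, plus strand: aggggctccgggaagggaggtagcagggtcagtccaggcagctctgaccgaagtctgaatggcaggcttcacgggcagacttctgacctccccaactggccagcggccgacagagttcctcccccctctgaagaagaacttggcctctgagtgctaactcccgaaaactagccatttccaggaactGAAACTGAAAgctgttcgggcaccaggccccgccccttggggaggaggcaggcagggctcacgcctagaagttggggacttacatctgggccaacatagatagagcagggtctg
Igtp, chr11:58199306-58199605, plus strand: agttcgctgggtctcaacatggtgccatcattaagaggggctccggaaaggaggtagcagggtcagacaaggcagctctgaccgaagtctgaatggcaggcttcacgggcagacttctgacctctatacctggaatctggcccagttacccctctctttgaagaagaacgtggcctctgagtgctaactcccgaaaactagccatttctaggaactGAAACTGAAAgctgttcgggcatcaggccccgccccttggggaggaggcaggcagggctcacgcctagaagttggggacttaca
Gbp2, chr3:142620413-142620712, plus strand: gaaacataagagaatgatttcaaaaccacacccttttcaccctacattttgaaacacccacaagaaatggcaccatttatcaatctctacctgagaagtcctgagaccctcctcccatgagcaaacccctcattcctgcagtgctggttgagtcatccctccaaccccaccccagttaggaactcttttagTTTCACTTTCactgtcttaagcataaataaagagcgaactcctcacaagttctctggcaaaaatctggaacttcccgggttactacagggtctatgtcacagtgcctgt

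The element was present in the promoters of 10 of the 11 members, and in 3.44% of the 32851 promoters of the same length. The gamma-activated site, searched as TTCNNNGAA, was present in 6 of the 11 members and in 8.3% of all promoters. Gbp4 and Gbp9 have no promoter here, so the element cannot be set beside their differences. It was present alike in Irgm2, whose change was -1.04 ± 0.15 in wild-type and -0.42 ± 0.15 in Cdk8-ko lines, in Igtp, with -0.42 ± 0.18 and -0.35 ± 0.18, and in Gbp2, with -1.83 ± 0.32 and -1.22 ± 0.31. A match to these letters is a description and not a measured binding site.

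Gbp9 was at 7.05, 25.6, 32.6 and 10.3 CPM in DMSO and at 2.09, 7.37, 13.5 and 3.62 CPM with Senexin B in wild-type lines 1 to 4. In Cdk8-ko lines it was at 6.8, 5.51, 16 and 12.6 CPM in DMSO and at 6.49, 2.89, 10.7 and 10.0 CPM with Senexin B. The fitted changes were -1.57 ± 0.18 and -0.46 ± 0.17 (difference 1.11, interval 0.57 to 1.65), and no Cdk8-ko line changed as much as any wild-type line. Gbp4 changed by -1.40 ± 0.17 and -0.55 ± 0.16 (difference 0.85, interval 0.34 to 1.37), and Irgm2 differed by 0.63 (interval 0.17 to 1.08). The lines of both also lay apart.

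For other members the interval of the difference included 0 or the difference was small. Gbp2 differed by 0.61 (interval -0.37 to 1.58) and Igtp by 0.08 (interval -0.47 to 0.63), and Gbp3, Gbp7, Irgm1 and Ifi47 differed by -0.11, 0.13, -0.04 and -0.12. Gbp4, Gbp8 and Gbp9 overlap on chromosome 5, as do Igtp and Irgm2 on chromosome 11, and near-identical copies share sequence, so the assignment of reads among them is uncertain. Without line 1 of both genotypes the medians of the group were -1.03 and -0.56, with Gbp9 at -1.51 and -0.58.

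**Figure D4:**
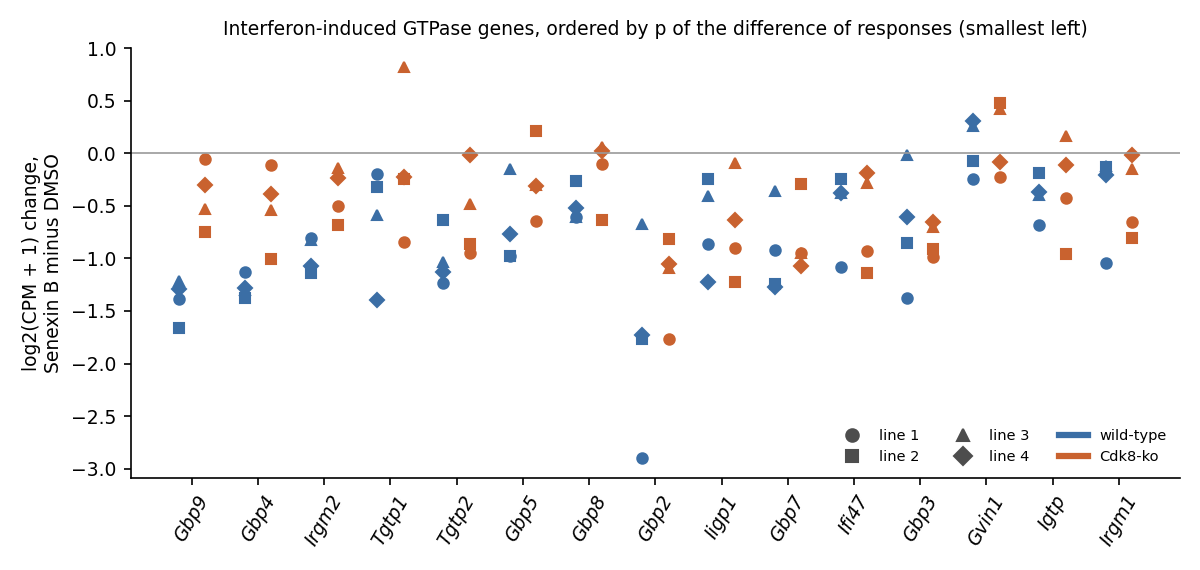
Log2(CPM + 1) change with Senexin B (y axis) of the 15 tested interferon-induced GTPase genes (x axis), with 1 symbol per line, ordered by the p of the difference. Gbp9, Gbp4 and Irgm2 at the left have all 4 Cdk8-ko lines (orange) above all 4 wild-type lines (blue), and the genes at the right overlap.

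The wider group of type I interferon-stimulated genes, with 32 of 34 members tested, had medians of -0.51 in wild-type and -0.23 in Cdk8-ko lines. None of them was called in either genotype alone, 3 fell on the average, and the Cdk8-ko change was higher for 20 of the 32. With 1 of 32 genes at an unadjusted p under 0.05, the group was near the 3.24% of all genes. That gene is the RNA sensor gene Ddx58 (wild-type -0.81 ± 0.14, Cdk8-ko -0.16 ± 0.14, difference 0.65, interval 0.22 to 1.09). Cdk8-ko line 2 changed in Ddx58 by -0.66, like the wild-type lines at -0.64 to -1.04, and the other Cdk8-ko lines by -0.02 to 0.04. The group's medians per line were -0.79, -0.14, -0.21 and -0.32 in wild-type lines 1 to 4 and -0.30, -0.50, 0.13 and 0.03 in Cdk8-ko lines 1 to 4. MHC class I presentation genes had medians of 0.15 in both genotypes.

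The 7 genes called in both genotypes had a ratio of the Cdk8-ko to the wild-type median of 0.799. Pld4, an exonuclease of endosomes that limits nucleic acid sensing, went from 13.8, 29.5, 22.3 and 24.4 CPM to 1.44, 6.88, 3.53 and 4.31 CPM in wild-type lines. In Cdk8-ko lines it went from 55.0, 14.4, 17.5 and 17.97 CPM to 13.4, 2.41, 5.28 and 3.9 CPM. Pld4 fell in both genotypes, by -2.58 ± 0.20 and -2.11 ± 0.19 (adjusted p = 0.000854 and 0.00468, edgeR), and the difference of 0.47 had an interval of -0.13 to 1.07. The cytokine receptor subunit gene Csf2rb2 fell by -2.17 ± 0.24 and -1.73 ± 0.23, the B-cell scaffold gene Bank1 by -1.80 ± 0.19 and -1.46 ± 0.19, and the membrane protein gene Tmem255a by -1.86 ± 0.27 and -2.12 ± 0.25. Tmem255a was the gene called in wild-type lines whose Cdk8-ko change was the larger one.

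Other genes rose in both genotypes. Bhlhe41, a transcriptional repressor of B cells and the circadian clock, rose by 1.59 ± 0.15 and 1.14 ± 0.14, with the 4 Cdk8-ko lines just below the 4 wild-type lines. Dchs2, a protocadherin gene, rose by 2.65 ± 0.37 and 1.70 ± 0.24, but the wild-type DMSO libraries held 2 to 5 Dchs2 reads, so that its wild-type fold rests on few reads. For each gene named here as called in both genotypes the interval of the difference reached 0, and that of Dchs2 allowed a Cdk8-ko response weaker by as much as 1.93.

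Other genes changed more, or the other way, in Cdk8-ko lines. Of the 459 genes at an unadjusted p under 0.05, 342 had the Cdk8-ko change smaller in size, opposite signs included, and the rest did not. Within-line changes varied more in wild-type lines, and no share expected without a difference was computed. Grap2, an adaptor protein of immune receptor signaling, was the gene called in Cdk8-ko and not in wild-type lines. It went from 27.0, 20.7, 19.7 and 10.8 CPM to 63.1, 38.6, 37.5 and 22.9 CPM in Cdk8-ko lines and from 22.5, 21.0, 39.8 and 59.5 CPM to 36.8, 23.2, 45.1 and 81.8 CPM in wild-type lines. It was higher with Senexin B in all 8 lines, by 1.03 ± 0.13 in Cdk8-ko (adjusted p = 0.0217, edgeR) and 0.37 ± 0.12 in wild-type lines (difference 0.66, interval 0.27 to 1.05). Among the 133 genes called on the average, 2 had a p of the difference under 0.05 with the larger Cdk8-ko change, the receptor tyrosine kinase gene Epha2 (0.59 ± 0.25 and 1.86 ± 0.36) and Gm43719. Both were at under 3 CPM in all 4 group means. Tle3, a Groucho-family corepressor, changed by 0.04 ± 0.18 in wild-type and 0.79 ± 0.18 in Cdk8-ko lines (difference 0.75, interval 0.19 to 1.31), with Cdk8-ko line 1 at 1.55 and the other Cdk8-ko lines at 0.46 to 0.63. Without line 1 of both genotypes Tle3 differed by 0.60. With opposite fitted signs, Spsb1, a ubiquitin ligase adaptor, changed by -0.99 ± 0.23 and 0.34 ± 0.24, and Zfp516 by -0.77 ± 0.29 and 1.22 ± 0.39, neither called in any genotype. Mean Zfp516 levels in Cdk8-ko lines were only 0.316 CPM in DMSO and 0.809 CPM with Senexin B. Its opposite sign thus rests on few reads, and its lines overlapped.

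Genes of 2 metabolic programs changed differently in line 1 and in the other wild-type lines. The ATF4 response raises amino acid synthesis and transport under amino acid shortage or stress, and the SREBP2-driven cholesterol pathway raises sterol synthesis. Of the 26 ATF4 genes tested, the Cdk8-ko change was higher for all 26, with medians of -0.65 in wild-type and 0.24 in Cdk8-ko lines. Of the 25 cholesterol genes, it was lower for 23, with medians of 0.71 and -0.01. Over all genes it was higher for 7010 and lower for 7154. The p of the difference was under 0.05 for 4 ATF4 genes (Trib3, Atf5, Ddit4 and Pck2) and 1 cholesterol gene (Idi1), against 3.24% of all genes, near which the share of the cholesterol genes lies. In the wild-type test Atf5 alone was called, with a fall of -1.57 ± 0.26, and no gene of either group was called in Cdk8-ko lines.

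The medians per line show the split. For the ATF4 genes they were 1.31 in wild-type line 1 and -0.94, -1.53 and -1.07 in wild-type lines 2 to 4, and 1.00, 0.47, -0.51 and 0.09 in Cdk8-ko lines 1 to 4. For the cholesterol genes they were -0.35, 0.95, 1.03 and 0.99 in wild-type lines and -0.97, -0.01, 0.94 and 0.09 in Cdk8-ko lines. Line 1 went one way in both genotypes and wild-type lines 2 to 4 the other, with Cdk8-ko line 3 on their side and Cdk8-ko lines 2 and 4 nearer to 0.

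Trib3, a pseudokinase induced by ATF4, went from 83.8, 149, 157 and 348 CPM in DMSO to 186, 27.0, 17.99 and 67.0 CPM with Senexin B in wild-type lines. In Cdk8-ko lines it went from 124, 85.5, 97.8 and 11.7 CPM to 411, 106, 36.4 and 19.2 CPM. It increased in line 1 of both genotypes and in Cdk8-ko lines 2 and 4, and decreased in the remaining lines. The fitted changes were -1.85 ± 0.71 and 0.35 ± 0.66 (difference 2.20, interval 0.06 to 4.34).

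With line 1 of both genotypes left out, the ATF4 medians were -1.30 and 0.01 and the cholesterol medians 1.00 and 0.38. The p of the difference was then under 0.05 for 23 of 26 ATF4 genes, all higher in Cdk8-ko lines, and for 15 of 25 cholesterol genes, all lower, against 1170 of 14073 genes. Line 1 had been seen to move against wild-type lines 2 to 4 in both groups, so larger counts without it follow from the choice. Genes of one program share regulation, so the counts are not of separate observations. Cdk8-ko line 2, whose ATF4 median of 0.47 had the sign of line 1, was kept in that fit. Ddit3, the stress transcription factor CHOP, changed by -2.18 and 0.005 in that fit, Trib3 by -2.65 and -0.16, the isomerase gene Idi1 by 1.5 and -0.43 and the sterol dehydrogenase gene Nsdhl by 1.80 and 0.62, each with an adjusted p of the difference over 0.1. In that fit 2 genes passed the limits for the difference, both with a smaller Cdk8-ko response. Lgr5, a receptor for R-spondins, changed by 2.67 in wild-type and 0.95 in Cdk8-ko lines, and Trim46, a microtubule-associated protein, by -1.98 and -0.35 (both adjusted p = 0.0378, edgeR). The alternative was chosen after seeing these data, and line 1 of each genotype moved against the other lines in both genes.

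**Figure D5:**
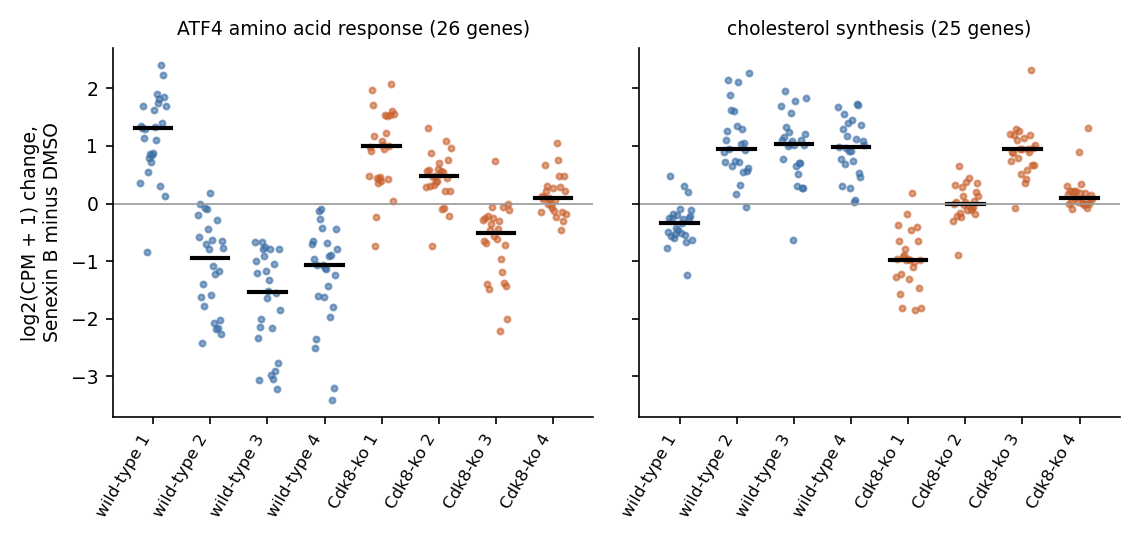
Log2(CPM + 1) change with Senexin B (y axis) in each line (x axis) for the 26 ATF4 genes and the 25 cholesterol genes, with a point per gene and a black bar at the median. Line 1 of both genotypes is positive for the ATF4 genes and negative for the cholesterol genes, and wild-type lines 2 to 4 are the reverse.

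B-cell genes were compared next. Pro-B and pre-B surface markers, 23 of 26 tested, had medians of 0.56 in wild-type and 0.07 in Cdk8-ko lines, and the Cdk8-ko change was lower for 18. The list includes the chemokine receptor gene Ccr7 and S1pr1, so its medians do not describe stage markers alone. The unadjusted p of the difference was under 0.05 for 4 of the 23 (3 lower and 1 higher in Cdk8-ko lines), against 3.24% of all genes. Ccr7 and Ly6d were called as rising in wild-type lines, against 0.289% of all genes. In Cdk8-ko lines 0 of the 23 passed the test, against 0.0565%. Both genes also rose in Cdk8-ko lines, Ccr7 by 1.46 ± 0.26 and Ly6d by 2.48 ± 0.49. Ly6d rose by 3.22 ± 0.42 in wild-type lines, and its difference of -0.74 had an interval of -2.17 to 0.685. Cd22, the inhibitory receptor for sialic acid, changed by 0.60 ± 0.15 and -0.17 ± 0.15 (difference -0.76, interval -1.23 to -0.29) without overlap of the lines. S1pr1, the receptor that guides lymphocyte exit from tissues, changed by -1.34 ± 0.32 and 0.02 ± 0.31 (difference 1.36, interval 0.36 to 2.35). Its lines overlapped, with Cdk8-ko line 2 at -0.58 and wild-type line 1 at -0.48 on the log2(CPM + 1) scale. Wild-type line 4 was at -2.545 and wild-type lines 2 and 3 were at -0.82 and -0.90. Genes of V(D)J recombination and the pre-B receptor had medians of 0.24 and -0.05, and B-lineage transcription factors 0.17 and 0.06. Of the 14 former genes, Dntt had a p under 0.05, with Cdk8-ko line 1 at -2.43 and the other Cdk8-ko lines at 0.25 to 0.56. Without line 1 of both genotypes Dntt differed by -1.12 instead of -1.83, and the unadjusted p was under 0.05 for 4 of the 14 genes and for 7 of the 23 surface markers (5 lower and 2 higher in Cdk8-ko lines), against 1170 of 14073 genes. That fit was chosen after seeing the data, and genes of one program are not separate observations.

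Cell cycle genes showed small shifts of one sign. All 26 mitotic genes had the lower change in Cdk8-ko lines, with medians of 0.24 and -0.04. So had 32 of 35 DNA replication genes, with medians of 0.15 and -0.01, against 7154 of 14164 genes. A p of the difference under 0.05 was found for 0 of these 61 genes, against 3.24% of all genes. Without line 1 of both genotypes it was 7 of the 26 mitotic genes (medians 0.43 and 0.09), against 1170 of 14073 genes. For the replication genes it was 2 of the 35, which is not above that share. All of these were lower in Cdk8-ko lines. With a Senexin B term per line number, also added after seeing the data, the cyclin genes Ccnb1 and Ccna2 differed by -0.60 and -0.42 (adjusted p = 0.322 and 0.48, edgeR). Genes of one program share regulation and are not separate observations. The mitotic medians of lines 1 to 4 were -0.30, 0.30, 0.38 and 0.53 in wild-type and -0.43, 0.18, 0.11 and -0.07 in Cdk8-ko lines. The median was lower in Cdk8-ko at each number, but lines of the same number are not pairs. The genotypes overlapped, with wild-type line 1 below Cdk8-ko lines 2 to 4. Respiratory chain genes had medians of 0.05 and -0.04, glycolysis and hypoxia genes -0.19 and -0.16, and MYC network genes -0.04 and -0.13.

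Of the 7 genes of the Mediator kinase module 0 were called in any comparison (unadjusted p of the difference 0.22 to 0.59), and the differences of responses ranged from -0.30 for Med12 to 0.35 for Med13l. Cdk19, the remaining target of the inhibitor, had mean levels of 194 CPM in DMSO and 171 CPM with Senexin B in wild-type lines, and 159 and 157 CPM in Cdk8-ko lines (difference of changes 0.13, interval -0.29 to 0.55). Without line 1 of both genotypes 1 of the 7, Med12, had an unadjusted p under 0.05 (difference -0.43). Of 25 core Mediator genes 1, Med22, had an unadjusted p of the difference under 0.05 (0 without line 1), near the 3.24% of all genes.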

How the data were processed

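RNA-seq libraries (16, single-end) were analysed from 8 lines. The authors deposited 1 table of raw counts per gene for each library. Per the file headers the counts were made with featureCounts 1.5.1 over exons without a strand option, and per the labels and methods reads were trimmed with Trimmomatic and mapped with STAR to GRCm38. The header of 1 file, wild-type DMSO replicate 1, names another annotation folder than the other 15.

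Samples were grouped by the labels' genotype and treatment, and line numbers were taken from the labels. Replicates are individually derived lines, and p-values measure the spread between them. Counts were tested with edgeR 4.0.16 (R 4.3.3; TMM, robust quasi-likelihood) in 1 fit of all 16 libraries with a term per line and a Senexin B term per genotype, leaving 6 residual degrees of freedom. After edgeR's filter on low counts 14164 of 50686 genes were tested. A gene counted as called when its p, adjusted after Benjamini and Hochberg, was under 0.05 and its log2 change over 1. Tests were two-sided. Fitted changes are log2 with standard errors and 95% intervals. CPM are counts scaled to TMM-adjusted library totals, and library totals of 13145876 to 18349425 set the counting error.

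Each line gave 1 library per treatment. Deviations of these pairs from the group means correlated at r = 0.559 to 0.872, each highest with its own line, so the line entered as a block. Between genotypes, same-numbered lines correlated at r = 0.689, -0.121, 0.254 and 0.287, and numbers were not paired.

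Gene lists and the comparison itself were chosen with earlier results of these data known. Genes were named by rule (those with the smallest p of the difference among genes called in wild-type lines, over all genes in each direction and in each list, those with the smallest p among genes called in both genotypes or in Cdk8-ko lines alone, and the kinase module). Irgm2, Tgtp1, Tgtp2, Gbp2, Gbp3, Gbp7, Irgm1, Ifi47, Gm43719, Atf5, Igtp, Trib3, Ddit3, Nsdhl, Hs3st2, Tmprss3, Ltbp2, Cacna1h, Lgr5, Trim46, Epha2, Ccr7, Plxnd1, Card6 and Wsb2 were chosen after their values were seen. Alternatives were DESeq2 1.42.0, other size factors, filters, limits, pseudocounts, thinned libraries and left-out lines. Scripts were tested on simulated data. Some items are not reported here.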

Additional observations from a re-analysis of the deposited data

Results flagged for a closer look

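With 4 lines per genotype, the line farthest from the others was marked where its gap exceeded the limit of Dixon's test. Of 176 groups of 4 lines checked 14 were marked, where chance alone marks about 1 in 20. No cause was tested. Values are log2(CPM + 1) changes with Senexin B.

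Wild-type line 1 stood apart in the medians of the cholesterol genes (-0.345, other lines 0.949 to 1.03) and of the Ly6 family (-0.233, others 1.15 to 1.39). It also stood apart for Trib3 (1.14, others -3.06 to -2.36), Trim46 (0.953, others -1.94 to -1.78), Lgr5 (-1.23, others 2.38 to 2.56) and Ccnb1 (-0.373, others 0.675 to 0.712). Wild-type line 2 stood apart in the medians of the DNA replication genes (0.439, others 0.0987 to 0.114) and of the Wnt genes (-0.409, others -0.00126 to 0.0696), and for the Mediator subunit gene Med22 (-0.777, others -0.215 to -0.142). Wild-type line 3 stood apart for Bhlhe41 (2.11, others 1.27 to 1.34).

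Cdk8-ko line 1 stood apart for Tle3 (1.55, others 0.462 to 0.63) and for Dntt, the terminal transferase gene (-2.43, others 0.249 to 0.564). Cdk8-ko line 2 stood apart for Ddx58 (-0.662, others -0.0194 to 0.0431). Cdk8-ko line 4 stood apart in the median of PI3K, AKT and mTOR genes (-0.00652, others 0.0801 to 0.0975).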

How the results depend on the processing

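No gene was called for the difference of responses in the fits that left out a single line (0 to 0), and 2 were called with no filter on low counts. DESeq2 called 203 genes in wild-type and 55 in Cdk8-ko lines. No filter gave 191 and 83, and at least 10 counts in every library gave 50, 5 and 42 for wild-type, Cdk8-ko and average calls. Without a fold limit 337 genes were called on the average, and an adjusted p limit of 0.1 gave 139 wild-type and 15 Cdk8-ko calls. The cause of these shifts was not tested.

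With no replicate block, that is without the line term that pairs the libraries of a line, 0 genes were called in wild-type lines, 0 in Cdk8-ko lines and 0 on the average (edgeR, 508, 182 and 657 at an unadjusted p under 0.05), and 0 for the difference (67 at an unadjusted p under 0.05).

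Leaving out single lines gave 17 to 454 wild-type calls, 0 to 27 Cdk8-ko calls, 73 to 282 average calls and ratios of 0.525 to 0.8. Wild-type calls moved by over 1.5 times without wild-type line 1, 2, 3 or 4, Cdk8-ko calls without wild-type line 1, 2 or 3 or Cdk8-ko line 1, 3 or 4, and average calls without wild-type line 1, 3 or 4 or Cdk8-ko line 2, 3 or 4. With line 1 of both genotypes left out, chosen after seeing the data, 2 genes were called for the difference, 593 in wild-type lines, 47 in Cdk8-ko lines and 424 on the average. A Senexin B term per line number, also added after seeing the data, called 0 genes for the difference (edgeR, 1202 at an unadjusted p under 0.05). Over the left-out lines the difference for Igtp ranged from -0.0952 to 0.293 and that for Ly6d from -1.22 to 0.0412. The difference for Igtp changed sign without wild-type line 1 (-0.0157) and without Cdk8-ko line 3 (-0.0952), and that for Ly6d without Cdk8-ko line 2 (0.0412). With 4 lines per genotype and 6 residual degrees of freedom, differences of the size of the intervals given above could not be resolved, and weakly expressed genes such as Dnajc6 rest on few reads.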
